A study of Mus musculus with 12 samples.

Results

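The genes described here are those of the Cyp2 family of cytochrome P450 enzymes in the livers of mice fed a high-fat diet (HFD). They were taken from the deposited table of expression values by a rule on the gene symbol alone: Cyp2, one letter for the subfamily and a number, with rows that join several genes under 1 name left out. The rule found 47 genes among the 23849 symbols of the table, in 13 subfamilies. Liver RNA came from 12 male C57BL/6J mice, 8 weeks old at the start, and each of 4 groups held 3 mice, which the labels call biological replicates. All mice were fed HFD for 6 weeks, and over the last 2 weeks they were gavaged with either vehicle or Policaptil Gel Retard, a fiber-based product that acts in the gut and that the labels call Libramed. Livers were collected at ZT0, when the lights turned on and the active phase ended, or at ZT12, when the lights turned off. By the paper's methods gavage was daily and shortly before lights off, so ZT12 came soon after the hour of dosing. Time of day and time since gavage cannot be told apart in any comparison of ZT12 with ZT0. No group received a normal diet, so the values show the tested product and the time of day under HFD only. The unit is FPKM, in which the fragments assigned to a gene are divided by its length and by the depth of the library, so levels can be set side by side between genes as well as between mice.

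Cytochrome P450 enzymes are heme proteins of the endoplasmic reticulum that insert an oxygen atom into their substrates, with electrons passed on by P450 oxidoreductase (Por) and cytochrome b5. The Cyp2 family is the main drug- and toxin-metabolizing family of the liver, and its members also hydroxylate steroids, bile acids and vitamin D and turn arachidonic acid into epoxides. In mouse liver many members are switched on by the receptors CAR and PXR, differ between the sexes through growth hormone, follow the clock through the factors Dbp, Tef and Hlf, and are unequally spread between the periportal and pericentral hepatocytes.

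Mouse Cyp2 genes lie in tandem clusters of recent duplicates, and reads of 100 bases can belong to more than 1 of them. In the GENCODE vM21 annotation of GRCm38 (mm10), 46 of the 47 genes had transcripts, Cyp2c44 under its other symbol Cyp2c23. Cyp2d13 was found only in RefSeq, as a transcribed pseudogene on chromosome 15. For each gene the share of its windows of 100 bases that occur letter for letter in a gene at another place was computed, and a gene was marked as uncertain from 10% on. Of the 7 marked genes, Cyp2c69 (35.4%), Cyp2c40 (34.4%), Cyp2c67 (23.7%) and Cyp2c68 (19.8%) share windows with one another, Cyp2a5 (12.1%) and Cyp2a4 (11.2%) share them with each other and with a pseudogene, and Cyp2d10 (11.7%) shares them mainly with Cyp2d11. The first 120 coding bases of Cyp2c67 and Cyp2c68, whose results are given below, and of the near-identical Cyp2c69 are printed here to show how little tells them apart. Capitals mark bases that differ from Cyp2c67, and the sequences were read on the minus strand from chr19:39648911-39649030 (Cyp2c67), chr19:39740922-39741041 (Cyp2c68) and chr19:39886588-39886707 (Cyp2c69).

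Cyp2c67: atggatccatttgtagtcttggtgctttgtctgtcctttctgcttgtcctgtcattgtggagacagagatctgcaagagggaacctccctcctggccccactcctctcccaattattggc
Cyp2c68: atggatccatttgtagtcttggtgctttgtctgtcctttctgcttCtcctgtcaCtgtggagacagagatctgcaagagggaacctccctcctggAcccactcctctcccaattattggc
Cyp2c69: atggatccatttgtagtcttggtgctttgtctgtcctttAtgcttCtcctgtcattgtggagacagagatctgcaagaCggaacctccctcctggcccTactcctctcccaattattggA

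Over the whole coding sequence Cyp2c67 and Cyp2c68 were identical at 97.1% of 1473 aligned bases. Cyp2a5, which had the largest difference between the times on the log2(FPKM + 1) scale, and its neighbour Cyp2a4 were identical at 98.4% of 1482 bases, with 23 differences. Their first coding bases are shown from chr7:26835364-26835483 (Cyp2a5) and chr7:26307218-26307337 (Cyp2a4), plus strand, with the 1 base that differs in capitals.

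Cyp2a5: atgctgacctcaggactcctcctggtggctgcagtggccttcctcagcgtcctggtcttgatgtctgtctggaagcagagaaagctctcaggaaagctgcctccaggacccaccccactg
Cyp2a4: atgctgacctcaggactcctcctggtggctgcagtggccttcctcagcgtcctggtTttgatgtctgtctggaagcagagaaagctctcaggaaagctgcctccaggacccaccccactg

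The 2 genes were also near-identical upstream, although their RNA levels in these livers differed by orders of magnitude. RefSeq places the windows from 250 to 41 bases before the transcript start at chr7:26835089-26835298 (Cyp2a5) and chr7:26306942-26307151 (Cyp2a4) of GRCm38.p6, plus strand. They were identical at 205 of 209 aligned bases, and capitals mark the letters TTGCATAA, which were looked for after the sequences had been read.

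Cyp2a5: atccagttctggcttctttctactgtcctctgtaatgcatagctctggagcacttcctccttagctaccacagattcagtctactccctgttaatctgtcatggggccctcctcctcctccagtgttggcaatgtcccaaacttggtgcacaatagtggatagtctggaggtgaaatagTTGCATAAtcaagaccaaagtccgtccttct
Cyp2a4: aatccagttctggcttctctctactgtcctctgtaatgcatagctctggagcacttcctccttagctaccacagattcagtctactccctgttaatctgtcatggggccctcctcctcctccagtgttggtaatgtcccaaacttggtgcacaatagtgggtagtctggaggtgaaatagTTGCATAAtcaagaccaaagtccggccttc

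The capitals begin 71 bases before the start of Cyp2a5 and 70 bases before that of Cyp2a4. On either strand these letters occur in 5 of the 41 promoter windows of Cyp2 genes (those of Cyp2a4, Cyp2a5, Cyp2b10, Cyp2b19 and Cyp2b23) and in 0.743% of all 32851 RefSeq windows of 300 bases. Their presence in the Cyp2a5 and Cyp2a4 windows was known before the count, so these shares are a description and do not measure enrichment.

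**Figure D1:**
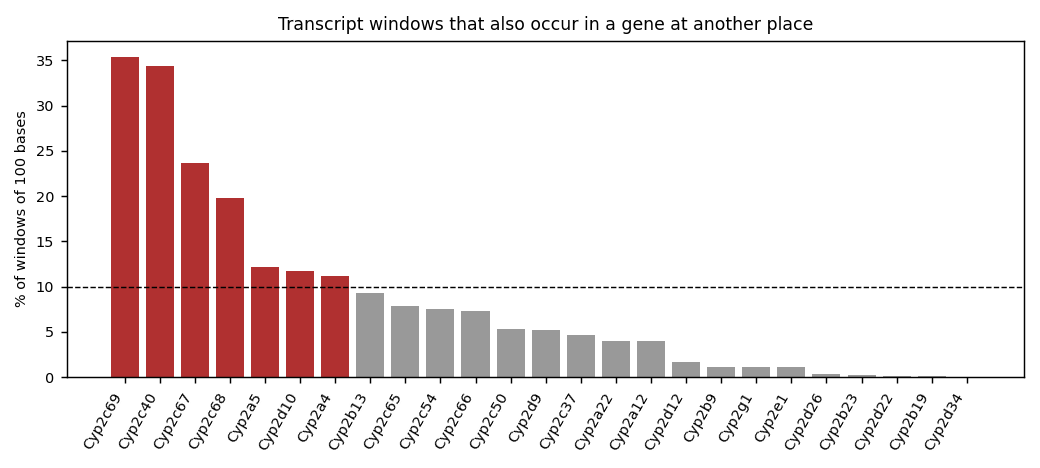
Bars give, for each Cyp2 gene with any such window, the percent of its transcript windows of 100 bases that occur exactly in a gene at another place of the genome (vertical axis, from 0). The dashed line is the 10% mark, which 7 genes pass, shown in red, led by Cyp2c69 at 35.4%.

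Of the 47 genes, 26 had a mean of at least 1 FPKM and were among the 9806 genes tested. The remaining 21 stayed under that mean, 8 of them at 0 in all 12 livers (Cyp2b19, Cyp2b23, Cyp2c65, Cyp2c66, Cyp2d34, Cyp2j12, Cyp2j13 and Cyp2w1). The Cyp2 genes together made up between 1.22% and 1.95% of the summed FPKM of a liver, and Cyp2e1 alone was 43.6% to 53.5% of the family. The Cyp2e1, Cyp2d and Cyp2c subfamilies held most of the Cyp2 signal in every group, as the plot of all tested genes shows. In vehicle mice at ZT0 the summed level was 3827 ± 239.7 FPKM for Cyp2e, 2503 ± 183 for Cyp2d, 995 ± 177 for Cyp2c, 610.3 ± 142 for Cyp2f and 534 ± 40.6 for Cyp2a (SD, n = 3).

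**Figure D2:**
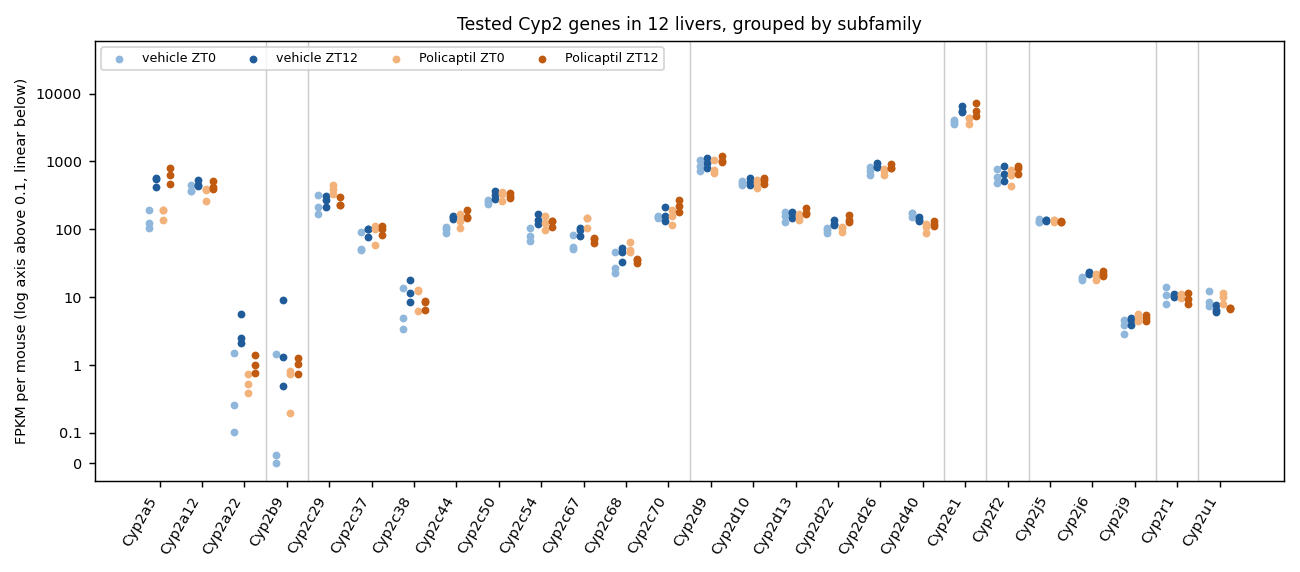
Each point is 1 mouse, the vertical axis is FPKM (logarithmic above 0.1, linear below), and the 26 tested Cyp2 genes stand side by side by subfamily with 4 columns of 3 mice each. Cyp2e1 lies highest, between 3520.4 and 7237 FPKM, and the widest scatter within a group is that of Cyp2b9 and Cyp2a22 in vehicle mice.

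The libraries differed in depth by at most 1.79 times, with Policaptil ZT12 replicate 2 the shallowest. This was judged from the most common ratio of the values of low genes to those in vehicle ZT0 replicate 1. Depth in reads is not known, so no counting error is given. Among the hepatocyte markers, Hnf4a and Ttr were measured in all livers, while Alb was listed at 0 in every one, which cannot be its true level. A pair of vehicle libraries, ZT0 replicate 1 and ZT12 replicate 3, had the highest female-biased and the lowest male-biased sums of the 12. The summed level of 12 female-biased genes outside the family was 37.8 FPKM in the former against 7.01 and 6.24 in its group, and 47.4 in the latter against 11.2 and 31.3. The summed level of 12 male-biased genes was 6125 FPKM against 11174 and 10695, and 6313 against 12178 and 9740. The female-biased sum also varied within the other groups, at 6.54, 21.4 and 24.6 FPKM with the tested product at ZT0 and at 34.2, 24.9 and 9.04 at ZT12. The main differences that use either vehicle library are also given without it where the value or the call moved. Because whole liver was sequenced, fewer cells of a type and less RNA per cell cannot be told apart in any value below.

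The first question was which Cyp2 genes differ between the start and the end of the active phase. In vehicle mice 4 of the 26 rose from ZT0 to ZT12 (Cyp2a5, Cyp2c44, Cyp2e1 and Cyp2c54) and 0 fell at a Benjamini-Hochberg adjusted p under 0.05 in limma, against 5.62% of all tested genes higher and 4.78% lower. At an unadjusted p under 0.05, 10 were higher and 1 was lower (background 14.4% and 13.0%), and Cyber-T, a second regularized test, gave 2 higher and 0 lower after adjustment and 8 and 0 before it. The fold change was positive for 23 of the 26, with a median log2 of 0.27 beside 0.0078 over all tested genes. In mice given Policaptil Gel Retard, 2 rose (Cyp2a5 and Cyp2d22) and 3 fell (Cyp2c67, Cyp2c68 and Cyp2c29), beside 7.0% and 5.36% of all tested genes. Here 16 of the 26 were positive, with a median log2 of 0.18 beside 0.013. At an unadjusted p under 0.05, 4 were higher and 4 lower (background 15.7% and 13.4%). These counts rested on single libraries: with vehicle, 6 rose without ZT0 replicate 1, 3 without ZT0 replicate 2 and 1 without any one of the other libraries. With the tested product 1 rose without any 1 of the 6 libraries, and 1 fell without ZT12 replicate 1 or 3 and 2 without any one of the others. Of Cyp2c67, Cyp2c68 and Cyp2c29, only Cyp2c67 still fell without ZT0 replicate 1 or 3. The other gene counted there was not among these, and was Cyp2u1 without ZT0 replicate 3.

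**Figure D3:**
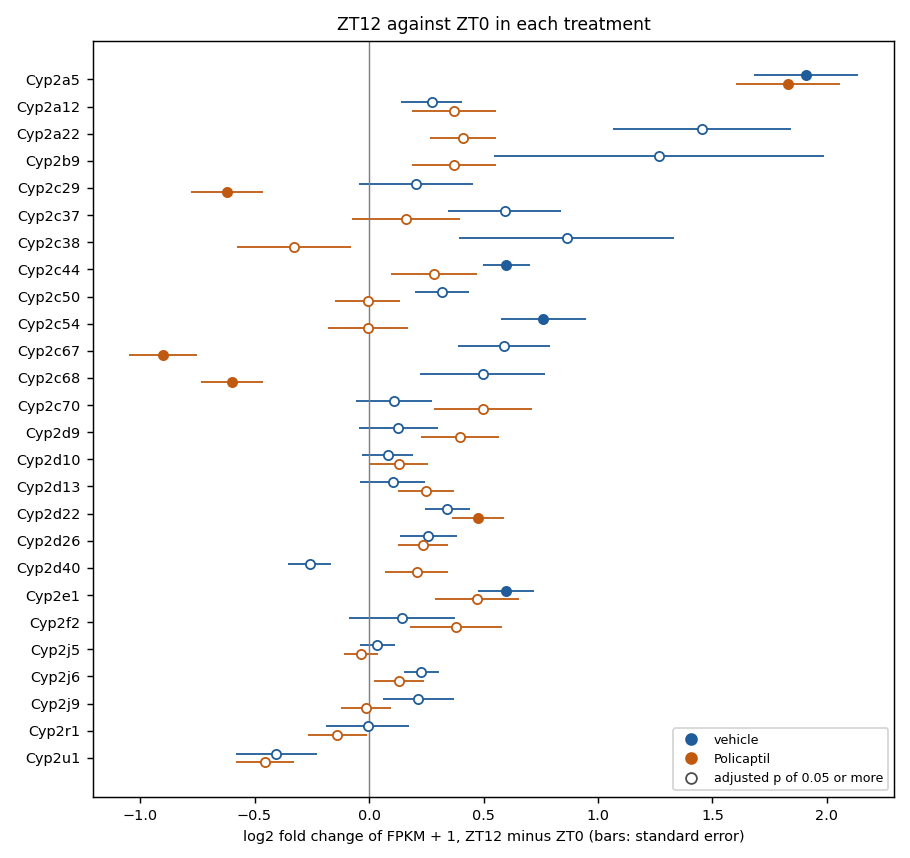
The horizontal axis is the log2 fold change of FPKM + 1 from ZT0 to ZT12, with bars of 1 standard error, for each tested Cyp2 gene in vehicle (blue) and Policaptil Gel Retard (orange) mice, and filled points have an adjusted p under 0.05. Cyp2a5 stands at 1.91 and 1.83 in the 2 treatments, whereas Cyp2c67 lies at 0.59 with vehicle and at -0.90 with the tested product.

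Among the subfamilies, Cyp2a held the widest difference between the times. Cyp2a5, the coumarin 7-hydroxylase, which also oxidizes nicotine, was at 189.7, 106 and 123 FPKM in vehicle mice at ZT0 and at 425, 546 and 571 FPKM at ZT12. With Policaptil Gel Retard it was at 194, 136 and 196 FPKM at ZT0 and at 459.8, 637 and 805 FPKM at ZT12. All 6 livers of ZT12 were above all 6 of ZT0, whatever the treatment. The mean rose 3.69-fold with vehicle (log2 1.91 ± 0.23 SE, limma adjusted p = 0.00695) and 3.62-fold with the tested product (log2 1.83 ± 0.23, adjusted p = 0.00477), and both calls held with any single library left out, at adjusted p of at most 0.0409 and 0.0239. Cyp2a4, its near-identical copy and a testosterone 15α-hydroxylase, was between 0 and 0.793 FPKM in the 12 livers, so the level assigned to Cyp2a5 was far above that of its copy in every liver.

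Cyp2a12, a bile acid and steroid 7α-hydroxylase, was the highest member of its subfamily on average. It was at 362, 456 and 365 FPKM in vehicle mice at ZT0, at 538, 434 and 455 at ZT12, at 394, 261 and 383 with the tested product at ZT0 and at 423, 388 and 519.7 at ZT12, and the groups overlapped in every comparison. Cyp2a22, which is identical to Cyp2a12 at 97.0% of 1476 coding bases, was far lower. Cyp2a22 and Cyp2b9 reached the mean of 1 FPKM only through the vehicle livers of ZT12, so every difference of these genes that involves that group was favoured by the filter and is given as a description. Cyp2a22 was at 1.49, 0.26 and 0.103 FPKM in vehicle mice at ZT0 and at 2.47, 2.10 and 5.64 at ZT12, and at 0.382, 0.731 and 0.528 with the tested product at ZT0 and at 1.01, 0.755 and 1.43 at ZT12. Its log2 difference between the times was 1.46 ± 0.39 with vehicle (limma adjusted p = 0.0615) and 0.41 ± 0.15 with the tested product (adjusted p = 0.113). Without vehicle ZT0 replicate 1 the former was 1.81 with an adjusted p of 0.0324, and without vehicle ZT12 replicate 3 it was 1.12 with 0.146.

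Cyp2e1, the enzyme of ethanol and acetaminophen oxidation and a pericentral gene, was the most abundant Cyp2 transcript in all 12 livers. Vehicle mice had 3775, 4088 and 3617 FPKM at ZT0 and 5447, 5380.4 and 6618 at ZT12. Mice given the tested product had 4401, 3520.4 and 4414 FPKM at ZT0 and 4599, 5468 and 7237 at ZT12. The times did not overlap within either treatment. Cyp2e1 rose 1.52-fold with vehicle (log2 0.60 ± 0.12 SE, limma adjusted p = 0.030), whereas with the tested product the log2 difference was 0.47 ± 0.18 (adjusted p = 0.143). The call with vehicle was lost on leaving out any library of the comparison but ZT0 replicate 2, with an adjusted p of up to 0.118. It was also lost in Cyber-T (adjusted p = 0.436), without the 1 FPKM minimum, with quantile normalization and with a block for replicate number.

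**Figure D4:**
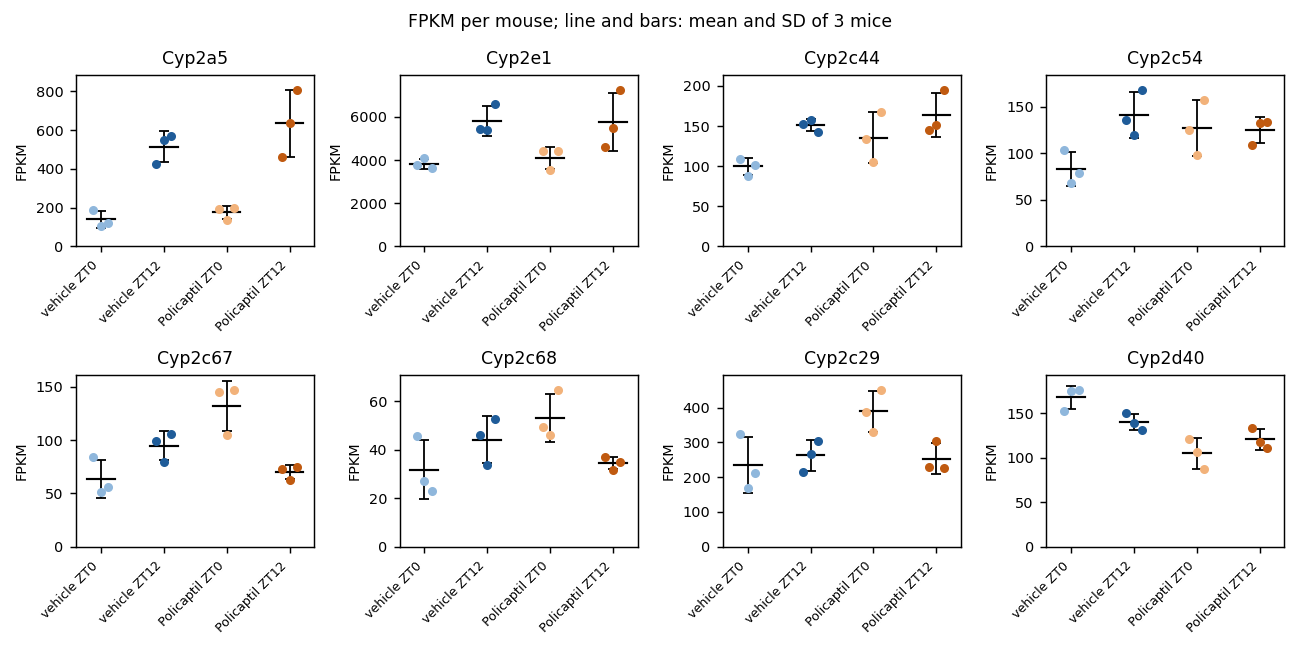
FPKM of 8 Cyp2 genes in each mouse (points), with the mean as a line and the SD as bars (n = 3), by group, on axes that start at 0. Cyp2a5 is high at ZT12 in both treatments, whereas Cyp2c67 is highest in the 3 mice given the tested product at ZT0, between 105 and 147 FPKM.

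The Cyp2c genes, many of which convert arachidonic acid into epoxyeicosatrienoic acids, are given here by their time differences in each treatment. With vehicle, 9 of 9 tested members had a positive log2 difference between the times, from 0.11 to 0.86, and 2 rose, beside 51.2% of all tested genes positive and 5.62% called higher. In treated mice 6 of 9 were negative, of which Cyp2c54 and Cyp2c50 lay within 0.01 of 0, and 3 fell, beside 52.4% of all tested genes positive and 5.36% called lower. The summed Cyp2c level was 995 ± 177 FPKM at ZT0 and 1292 ± 91.0 at ZT12 in vehicle mice (SD, n = 3). In treated mice it was 1415 ± 269 FPKM at ZT0 and 1288 ± 52.7 at ZT12.

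Cyp2c44, an epoxygenase whose gene stands alone at chr19:44005022-44029208 outside the main Cyp2c cluster, was at 109, 88.2 and 102 FPKM in vehicle mice at ZT0 and at 153, 158 and 143 at ZT12. With the tested product it was at 134, 105 and 168 FPKM at ZT0 and at 145, 152 and 195 at ZT12, so the times overlapped there. It rose by 0.60 ± 0.10 (log2, SE) with vehicle (limma adjusted p = 0.0175). Omitting vehicle ZT0 replicate 3 or any one of the vehicle ZT12 libraries ended that call (adjusted p up to 0.0789). So did Cyber-T (adjusted p = 0.199) and the block for replicate number. Cyp2c54 was at 103, 68.0 and 78.4 FPKM in vehicle mice at ZT0 and at 136, 119 and 168 at ZT12, without overlap. Its values with the tested product were 126, 98.6 and 158 FPKM at ZT0 and 109, 133 and 134 at ZT12. Cyp2c54 rose by 0.76 ± 0.19 with vehicle (limma adjusted p = 0.0468), a call that was lost on leaving out any library but ZT0 replicate 1 (adjusted p up to 0.140), and its log2 difference with the tested product was -0.0030. The vehicle call was also lost in Cyber-T, without the 1 FPKM minimum and with the block for replicate number.

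Cyp2c67 had time differences of opposite sign in the 2 treatments. It was at 83.7, 51.3 and 55.6 FPKM in vehicle mice at ZT0 and at 99.1, 79.2 and 106 at ZT12, and at 145, 105 and 147 with the tested product at ZT0 and at 72.6, 62.2 and 74.4 at ZT12. With Policaptil Gel Retard it fell by 0.90 on the log2 scale (SE 0.15, limma adjusted p = 0.0120), also with any single library left out (adjusted p at most 0.0470), although the call was lost in Cyber-T and without the 1 FPKM minimum. With vehicle the difference was 0.59 ± 0.20 (adjusted p = 0.114). Cyp2c68, its marked neighbour, was at 45.6, 26.9 and 22.9 FPKM in vehicle mice at ZT0 and at 46.2, 33.5 and 52.8 at ZT12, and at 49.2, 46.0 and 64.4 with the tested product at ZT0 and at 36.9, 31.8 and 34.9 at ZT12. It fell by 0.60 with the tested product (SE 0.14, adjusted p = 0.0327). The other marked copies, Cyp2c40 and Cyp2c69, were at most 0.629 and 0.407 FPKM in any liver, and how reads were shared out among these 4 genes was not tested.

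Cyp2c29, an epoxygenase inducible through CAR, is not a marked gene and had no window in common with a gene at another place. However, 1.36% of its windows also occur in the pseudogene Cyp2c53-ps, which overlaps it. Cyp2c29 was at 325, 168 and 211 FPKM in vehicle mice at ZT0 and at 216, 268 and 305 at ZT12, with overlap. In treated mice it was at 388, 331 and 449.8 FPKM at ZT0 and at 230.2, 304 and 226 at ZT12, without overlap. It fell by 0.62 in the latter (SE 0.16, limma adjusted p = 0.0461), and this call and that of Cyp2c68 were each lost on leaving out 5 of the 6 libraries, with adjusted p of up to 0.130 and 0.108. The libraries whose removal left the call in place were Policaptil ZT12 replicate 2 for Cyp2c29 and Policaptil ZT0 replicate 2 for Cyp2c68. Both calls were also lost without the 1 FPKM minimum and in 1 fit over all mice. That of Cyp2c68 was lost in Cyber-T as well (adjusted p = 0.609), and that of Cyp2c29 with the block for replicate number. Cyp2c50, on average the highest Cyp2c gene, was at 273, 239.8 and 256 FPKM in vehicle mice at ZT0 and at 367, 281 and 316 at ZT12 (log2 0.32 ± 0.12, limma adjusted p = 0.138). With the tested product it was at 335, 258 and 360.0 FPKM at ZT0 and at 289, 307 and 346 at ZT12, with overlap.

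The other tested Cyp2c genes passed the adjusted threshold in no comparison. Cyp2c37 ranged from 49.1 to 111 FPKM, Cyp2c38 from 3.38 to 18.2, and Cyp2c70, the muricholic acid synthase of mouse liver, from 117 to 266. Cyp2c37 differed between the times by 0.59 ± 0.25 with vehicle (limma adjusted p = 0.176), and by 0.876 with an adjusted p of 0.0218 without vehicle ZT0 replicate 1. Under the same omission Cyp2c67 also passed with vehicle (adjusted p = 0.0284). Cyp2c39, a retinoic acid hydroxylase and the untested member with the highest mean (0.618 FPKM), was at 0.540, 0.163 and 0.438 FPKM in vehicle mice at ZT0 and at 0.899, 1.39 and 1.08 at ZT12, without overlap, and at 0.379 to 0.564 FPKM in the 6 mice given the tested product.

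The Cyp2d genes, which include Cyp2d9, the male-predominant testosterone 16α-hydroxylase, had 1 call in all comparisons, that of Cyp2d22 with the tested product. Cyp2d9 was at 728, 1043 and 855 FPKM in vehicle mice at ZT0 and at 1115, 942 and 805 at ZT12, and at 1036, 671 and 755 with the tested product at ZT0 and at 1021, 992 and 1185 at ZT12. Its groups overlapped in every comparison. Cyp2d22, often named as the counterpart of human CYP2D6, was at 106, 98.1 and 89.0 FPKM in vehicle mice at ZT0 and at 117, 121 and 135 at ZT12, and at 108, 91.4 and 103 with the tested product at ZT0 and at 137, 126 and 160 at ZT12. The times did not overlap in either treatment. Cyp2d22 rose by 0.48 ± 0.11 with the tested product (limma adjusted p = 0.0375), a call lost on leaving out any of the 6 libraries (adjusted p 0.0577 to 0.0976), and its difference with vehicle was 0.34 ± 0.10 (adjusted p = 0.0778). The call with the tested product was also lost in Cyber-T and without the 1 FPKM minimum.

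Cyp2d40 was the Cyp2d gene that differed most between vehicle and tested product. It was at 153, 175 and 176 FPKM in vehicle mice at ZT0 and at 149.9, 139 and 131 at ZT12, and at 121, 107 and 86.9 with the tested product at ZT0 and at 133, 118 and 111 at ZT12. All 3 vehicle livers of ZT0 were above those of ZT12 and above all 6 livers of treated mice, apart from which the groups of ZT12 overlapped. With vehicle the log2 difference from ZT0 to ZT12 was -0.26 ± 0.10 (limma adjusted p = 0.132). Cyp2d10 (412 to 567 FPKM), Cyp2d26 (624 to 933) and the pseudogene Cyp2d13 (130 to 208) made up the rest of the tested Cyp2d genes. Of these only Cyp2d26 was without overlap between the times, in both treatments.

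Cyp2b9 was the single tested Cyp2b gene, and it passed the filter through 1 liver. Vehicle mice had 1.48, 0 and 0.0271 FPKM at ZT0 and 0.49, 1.34 and 9.19 at ZT12, the highest value being that of replicate 3. Mice given the tested product had 0.196, 0.732 and 0.81 FPKM at ZT0 and 0.733, 1.05 and 1.29 at ZT12. Cyp2b9 is a female-predominant gene, and among vehicle libraries its values were highest in those with the highest summed female-biased genes. With the tested product its order followed that sum at ZT0 and was the reverse of it at ZT12. A link was not tested. Cyp2b10, the classic CAR target, stayed under the filter at 0 to 0.995 FPKM. It was at 0 to 0.0533 FPKM in vehicle mice at ZT0, 0.143 to 0.294 at ZT12, 0.0237 to 0.0822 with the tested product at ZT0 and 0.283 to 0.995 at ZT12, so the times did not overlap. Cyp2b13 was above 0 in 3 livers, at up to 0.0405 FPKM.

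The remaining subfamilies each had 1 main gene. Cyp2f2, which activates naphthalene and is periportal in liver, was at 481, 762 and 589 FPKM in vehicle mice at ZT0, 866, 650.2 and 516 at ZT12, 743, 440.3 and 631 with the tested product at ZT0 and 795, 662 and 862 at ZT12, with overlap throughout. Cyp2j5, an arachidonic acid epoxygenase of liver and kidney, was the steadiest member. Its 12 values lay between 126 and 139.7 FPKM, at 129.5, 127 and 139.7 in vehicle mice at ZT0, 135, 134 and 137 at ZT12, 126, 137 and 137 with the tested product at ZT0 and 129, 127 and 134 at ZT12. Its paralog Cyp2j6 was between 17.9 and 24.5 FPKM, with a log2 difference between the times of 0.23 ± 0.08 with vehicle (limma adjusted p = 0.111).

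Cyp2j9 was at 4.63, 2.84 and 3.96 FPKM in vehicle mice at ZT0, 4.64, 5.0 and 3.95 at ZT12, 5.58, 4.46 and 5.05 with the tested product at ZT0 and 5.53, 5.0 and 4.41 at ZT12, with overlap. Cyp2r1, the vitamin D 25-hydroxylase, was at 14.0, 7.88 and 10.7 FPKM in vehicle mice at ZT0, 10.4, 11.1 and 10.1 at ZT12, 11.3, 10.6 and 9.90 with the tested product at ZT0 and 9.39, 11.5 and 8.01 at ZT12. These groups overlapped as well. Cyp2u1, a hydroxylase of long-chain fatty acids, was at 7.47, 12.2 and 8.55 FPKM in vehicle mice at ZT0, 7.75, 6.05 and 6.50 at ZT12, 11.5, 10.1 and 7.96 with the tested product at ZT0 and 6.90, 6.84 and 6.81 at ZT12. With the tested product its difference was -0.45 ± 0.13 (limma adjusted p = 0.0591), and without Policaptil ZT0 replicate 3 the adjusted p was 0.0287. In vehicle mice the times overlapped.

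Genes under the filter that are known from other tissues were near 0 here. Cyp2g1, an olfactory gene, reached at most 0.982 FPKM, Cyp2s1 0.746, Cyp2t4 0.277, Cyp2j8 0.202 and Cyp2j11 0.0845. Cyp2c55 and Cyp2d12 were above 0 in all 12 livers, at up to 0.545 and 0.839 FPKM.

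Counted by the livers themselves, 9 of the 26 genes had all 3 vehicle livers of ZT12 above all 3 of ZT0, against 17.4% of all tested genes, and 1 had them below (15.8%). In treated mice the counts were 5 above (19.0% of all tested genes) and 4 below (15.8%). Markers of other cells moved with the time of day as well: 4 of 4 tested endothelial markers had an unadjusted limma p under 0.05 and were lower at ZT12 in each treatment, beside 13.0% of all tested genes in vehicle mice and 13.4% in treated mice. The summed endothelial level was 23.3 to 32.8 FPKM at ZT0 and 12.2 to 20.7 at ZT12 with vehicle, and 30.1 to 38.2 and 19.2 to 20.3 with the tested product, with 0 of the 5 listed markers at 0. Of the 4 tested stellate cell markers, 2 with vehicle and 4 with the tested product were lower in the same sense, with sums of 5.97 to 7.62 and 4.09 to 5.26 FPKM, and of 7.40 to 10.6 and 4.20 to 5.35 in treated mice. Of 8 periportal markers, 3 rose with the tested product (Sds, Pck1 and Aldh1b1) and 0 with vehicle, with sums of 743 to 1124 FPKM at ZT0 and 1821 to 2835 at ZT12 in treated mice, and of 935 to 1527 and 1465 to 1881 in vehicle mice. Of 8 pericentral markers, which lie in the zone of Cyp2e1, 1 fell with vehicle (Oat) and 1 with the tested product (Lgr5). At an unadjusted limma p under 0.05, 3 of the 8 were lower and 1 higher with vehicle, beside 13.0% and 14.4% of all tested genes. With the tested product 2 were lower and 1 higher, beside 13.4% and 15.7%. Of 6 tested hepatocyte markers, 1 rose with the tested product (Hnf4a), and of 4 tested cholangiocyte markers 1 fell with vehicle (Sox9) and 1 with the tested product (Krt19). The single blood marker in the table, Alas2, differed by -0.136 and 0.240 on the log2 scale, and 4 kidney and olfactory markers summed to at most 0.347 FPKM. The part of these other genes in the Cyp2 results was not tested.

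The second question was whether Policaptil Gel Retard changed the Cyp2 genes at a given time. At ZT0, 0 of the 26 genes passed the adjusted threshold in limma, as did 0 of all 9806 tested genes, and the smallest adjusted p of a Cyp2 gene was 0.316. At an unadjusted p under 0.05, 4 were higher with the tested product (Cyp2c67, Cyp2c29, Cyp2c68 and Cyp2c54), against 3.42% of all tested genes, and 1 was lower (Cyp2d40), against 5.81%. Cyber-T gave 0 adjusted calls and 3 and 1 at an unadjusted p under 0.05. All 9 tested Cyp2c genes had a positive difference, with a median log2 of 0.60 for the subfamily, while the median over all tested genes was -0.020. The share of all tested genes with a positive difference was 44.99%. The main Cyp2c cluster, chr19:39007019-40187333, holds 8 of the 9 Cyp2c genes, so its 8 of 8 positive genes repeat this count. In the tested Cyp2d cluster on chromosome 15, 1 of 6 was positive, with a median log2 of -0.026. Apart from Cyp2d40 (-0.68), these genes lay between -0.10 and 0.045, each within 1 SE of 0. Their signs therefore do not show that the Cyp2d cluster moved in the opposite direction.

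Cyp2c67 had a 2.08-fold higher mean with the tested product at ZT0 (log2 1.06 ± 0.21 SE, limma adjusted p = 0.316), Cyp2c29 a 1.66-fold higher one (0.77 ± 0.24, adjusted p = 0.482), Cyp2c68 a 1.67-fold higher one (0.77 ± 0.26, 0.502) and Cyp2c54 a 1.53-fold higher one (0.60 ± 0.21, 0.513). The values of Cyp2c67, Cyp2c68 and Cyp2c29 did not overlap between vehicle and tested product, which makes 3 of 26, against 5.19% of all tested genes. Cyp2d40 was the 1 gene without overlap in the other direction, against 9.94%, at 0.625 times the vehicle mean (log2 -0.68 ± 0.14, limma adjusted p = 0.316). Without vehicle ZT0 replicate 1 the log2 differences were 1.27 for Cyp2c67, 1.03 for Cyp2c29, 1.05 for Cyp2c68, 0.77 for Cyp2c54 and -0.75 for Cyp2d40, with limma adjusted p between 0.224 and 0.328. The count of 4 higher genes depended on single libraries. It was 10 without vehicle ZT0 replicate 1, 7 without Policaptil ZT0 replicate 2, 2 without vehicle ZT0 replicate 2 or 3 and 1 without Policaptil ZT0 replicate 3. Of the 5 tested Kupffer cell and macrophage markers, 3 had an unadjusted limma p under 0.05 and were lower with the tested product at ZT0. This stands beside 5.81% of all tested genes, and 0 of the 5 passed the adjusted threshold. The summed level of the 7 listed macrophage markers in the table was 28.5 to 35.4 FPKM with vehicle and 15.7 to 27.9 with the tested product, with 0 of them at 0 in all livers, and their part in these results was not tested.

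**Figure D5:**
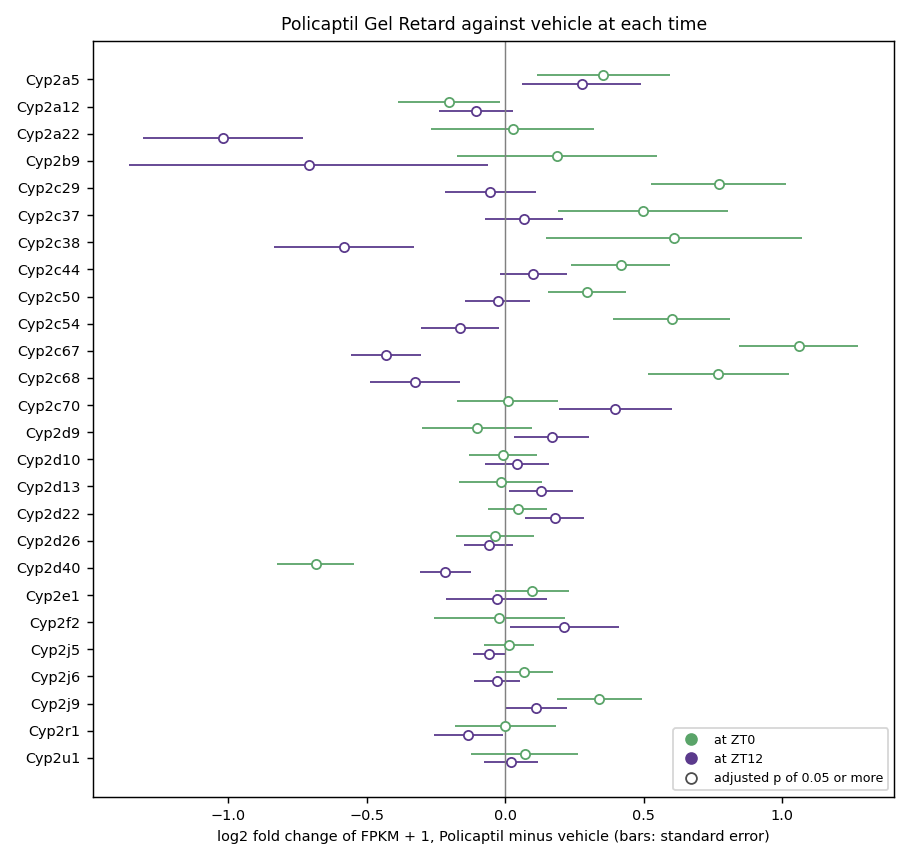
The horizontal axis is the log2 difference of FPKM + 1 between Policaptil Gel Retard and vehicle mice, with bars of 1 standard error, at ZT0 (green) and ZT12 (purple), and open points have an adjusted p of 0.05 or more. The Cyp2c genes lie at 0 or to its right at ZT0, up to 1.06 for Cyp2c67, and no point is filled.

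At ZT12, 0 of the 26 genes passed the adjusted threshold in limma or in Cyber-T. At an unadjusted p under 0.05, 0 were higher, against 3.07% of all tested genes, and 2 were lower (Cyp2a22 and Cyp2c67), against 3.67%, and Cyber-T gave the same counts. Of these, Cyp2a22 owed its place among the tested genes to its high vehicle ZT12 group. The median log2 difference of the 26 was -0.030, beside -0.014 over all tested genes. Cyp2c67 was at 0.737 times the vehicle mean (log2 -0.43 ± 0.13, limma adjusted p = 0.729). Cyp2a22 was at 0.313 times the vehicle mean (log2 -1.02 ± 0.29, adjusted p = 0.729), and at -0.68 with an adjusted p of 0.902 without vehicle ZT12 replicate 3. Both genes were without overlap between the treatments, as was Cyp2j5, whose means of 135 ± 1.30 and 130.03 ± 3.36 FPKM (SD, n = 3) differed by 0.961 times. These 3 stand against 7.26% of all tested genes, and 0 genes were without overlap in the other direction, against 5.88%. Without vehicle ZT12 replicate 1 the count of higher genes at an unadjusted p under 0.05 was 2, and without Policaptil ZT12 replicate 1 or 2 it was 1.

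Whether the difference between ZT0 and ZT12 was alike in both treatments was tested by the interaction. This is the log2 change over time with the tested product minus that with vehicle. No Cyp2 gene passed the adjusted threshold in limma, nor did any of the 9806 tested genes, and Cyber-T gave 0 adjusted calls for the family as well. At an unadjusted p under 0.05, 5 had a negative interaction, against 2.80% of all tested genes, and 1 a positive one, against 3.82%. Cyber-T gave 5 and 0. Since Cyp2a22 passed the filter through its high vehicle ZT12 group, 4 of the 5 bear on the comparison. The negative ones were Cyp2c67 (-1.49 ± 0.27, limma adjusted p = 0.337), Cyp2c68 (-1.09 ± 0.33, 0.560), Cyp2a22 (-1.05 ± 0.45, 0.735), Cyp2c29 (-0.82 ± 0.32, 0.691) and Cyp2c54 (-0.76 ± 0.28, 0.663), and the positive one was Cyp2d40 (0.47 ± 0.17, 0.665). Of the 9 tested Cyp2c genes, 8 were negative, Cyp2c70 being the other at 0.39 ± 0.30. Without vehicle ZT0 replicate 1 the differences were -1.70 for Cyp2c67, -1.38 for Cyp2c68, -1.09 for Cyp2c29, -0.93 for Cyp2c54 and 0.53 for Cyp2d40, and without vehicle ZT12 replicate 3 they were -1.40, -0.96, -0.71, -0.63 and 0.42 in the same order. These groups are those of the comparisons above and add no further mice. Without the marked genes, 3 were negative at an unadjusted p under 0.05 (Cyp2c29, Cyp2c54 and Cyp2a22), of which Cyp2a22 does not bear on the comparison. The count was also 3 without vehicle ZT0 replicate 2, vehicle ZT0 replicate 3, vehicle ZT12 replicate 3, Policaptil ZT0 replicate 3 or Policaptil ZT12 replicate 1. The positive call of Cyp2d40 was lost without the last of these libraries.

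Averaged over both times, 0 Cyp2 genes and 0 of all tested genes differed between tested product and vehicle at an adjusted p under 0.05 in limma, and Cyber-T gave 0 for the family. At an unadjusted p under 0.05, 4 were higher (Cyp2c29, Cyp2c67, Cyp2c44 and Cyp2j9), against 4.03%, and 1 was lower (Cyp2d40), against 6.42%, while Cyber-T gave 1 and 2. Cyp2d40 was lower by -0.45 ± 0.09 on the log2 scale (limma adjusted p = 0.167), and an exact two-sided permutation of the treatment labels within each time gave p = 0.01, the smallest possible value being 0.005 in 400 arrangements. That permutation p was not corrected for the number of genes, and Cyp2d40 had been picked by its limma p in the same mice. The difference of Cyp2d40 stayed between -0.504 and -0.386 in all 21 alternatives. These reuse the same mice, and Cyp2d40 passed the adjusted threshold in none of them. The higher genes differed by 0.36 ± 0.16 (Cyp2c29), 0.31 ± 0.14 (Cyp2c67), 0.26 ± 0.12 (Cyp2c44) and 0.23 ± 0.10 (Cyp2j9), with limma adjusted p between 0.464 and 0.475. Their exact permutation p values were 0.14, 0.285, 0.105 and 0.06. This count fell to 0 without vehicle ZT0 replicate 2, vehicle ZT0 replicate 3, or replicate 1 or 3 of Policaptil ZT0, to 1 without vehicle ZT12 replicate 1 or 2, and to 2 without vehicle ZT12 replicate 3 or either of Policaptil ZT12 replicates 2 and 3, and it was 8 without vehicle ZT0 replicate 1 or Policaptil ZT0 replicate 2.

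Several genes for proteins that serve the P450 enzymes differed between the times in both treatments. Por, the reductase that supplies the electrons, was at 85.2, 65.6 and 38.2 FPKM in vehicle mice at ZT0 and at 221, 330.3 and 349 at ZT12, and at 47.6, 69.4 and 97.5 with the tested product at ZT0 and at 272, 351 and 377 at ZT12. It rose by 2.28 ± 0.31 with vehicle (limma adjusted p = 0.00945) and by 2.25 ± 0.25 with the tested product (adjusted p = 0.00368). Alas1, the first enzyme of heme synthesis, rose by 2.34 ± 0.25 (adjusted p = 0.00527) and 2.86 ± 0.55 (adjusted p = 0.0195), and Cyb5a, cytochrome b5, by 0.61 ± 0.09 (adjusted p = 0.0125) and 0.51 ± 0.12 (adjusted p = 0.0394). Of the 10 redox and heme partners, 3 rose and 1 fell with vehicle, Hmox1, the heme-degrading oxygenase (-0.80 ± 0.13, limma adjusted p = 0.0141), and 3 rose with the tested product. The shares of all tested genes called higher and lower were 5.62% and 4.78% in vehicle mice, and 7.0% and 5.36% in treated mice, which also stand beside the lists that follow. In the 4 other comparisons 0 of the 10 passed the adjusted threshold, and at an unadjusted p under 0.05 there was 1 lower at ZT0 and 1 with a positive interaction.

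Of the 18 nuclear receptors and factors known to act on Cyp2 genes, 5 rose and 1 fell from ZT0 to ZT12 with vehicle, and 7 rose and 1 fell with the tested product, against 5.62% and 4.78%, and 7.0% and 5.36%, of all tested genes. Nr1i3, which encodes CAR, rose by 1.14 ± 0.18 with vehicle (limma adjusted p = 0.0140) and by 0.89 ± 0.13 with the tested product (adjusted p = 0.0092). Nr1i2, which encodes PXR, rose by 1.00 ± 0.13 (adjusted p = 0.00752) and 0.80 ± 0.17 (adjusted p = 0.0245). Of the clock output factors, Tef rose by 1.39 ± 0.20 (adjusted p = 0.0101) and 1.19 ± 0.09 (adjusted p = 0.00104). Dbp was at 17.9, 6.97 and 1.85 FPKM in vehicle mice at ZT0 and at 74.0, 54.0 and 58.0 at ZT12, and at 20.3, 18.2 and 27.2 with the tested product at ZT0 and at 52.8, 49.8 and 83.5 at ZT12. It rose by 3.05 ± 0.61 with vehicle (limma adjusted p = 0.0284) and by 1.44 ± 0.22 with the tested product (adjusted p = 0.00991), and its treated livers of ZT0 were above all vehicle livers of that time. Nfil3, the repressor that binds the same sites, fell in both. None of the 18 passed the adjusted threshold for the treatment or the interaction in limma, with 3 higher and 2 lower at an unadjusted p under 0.05 at ZT0, 0 at ZT12, and 1 positive and 2 negative in the interaction.

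Among 11 tested CAR and PXR targets outside the family, which include Por and Alas1, 4 rose and 0 fell with vehicle (also Abcc3 and Aldh1a1), while 2 rose and 1 fell, Gstm3, with the tested product. For the treatment and the interaction 0 of them passed the adjusted threshold in limma, with 1 higher at an unadjusted p under 0.05 at ZT0, 1 higher and 2 lower at ZT12, and 1 negative in the interaction. Of 6 tested genes for the handling of epoxides and other P450 products, 1 rose with vehicle (Aldh1a1) and 1 fell with the tested product (Gstm3). Of 12 male-biased genes, 1 fell with vehicle (Elovl3) and 2 with the tested product (Elovl3 and Hsd3b5). Of 12 female-biased genes only 3 could be tested, and 1 of these rose with the tested product (Acot3).

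The promoter windows of 300 bases, 250 before and 50 after the transcript start, were searched on both strands for letters bound by clock factors. RefSeq had 41 windows for 39 of the Cyp2 genes. The D-box of Dbp, Tef and Hlf, written as TTATGTAA or TTACGTAA, was in 0 of the 41 windows and in 1.06% of all 32851 windows. The E-box of CLOCK and ARNTL, CACGTG, was in 1 window, that of Cyp2j6, at 44 bases before the start, and in 7.15% of all. The half-site of ROR and REV-ERB receptors, TAGGTCA, was in 0 windows and in 2.61% of all. These searches say only whether these letters lie in these windows.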

How the data were processed

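Liver RNA of 12 mice was sequenced on an Illumina platform. The authors deposited a single table that gives FPKM for each gene in each mouse. The study's methods describe alignment with ELAND and RPKM, whereas the submitters' processing notes name TopHat and Cuffnorm and the build mm10. Which of them made the table, and whether strand was used in counting, was not settled, so genes that overlap others (Cyp2f2, Cyp2u1, Cyp2d9, Cyp2c29 and Cyp2s1) are uncertain. For a repeated symbol, values were taken from its most abundant line by average FPKM, and its other lines were dropped. The 24138 lines thus gave 23849 symbols. Read depth is not known and was judged only relative to other libraries.

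Values were tested as log2(FPKM + 1) for the 9806 genes that averaged 1 FPKM or more, with limma 3.58.1 (R 4.3.3, trended prior, two-sided, Benjamini-Hochberg over all genes tested, threshold 0.05). The pseudocount understates the change of low genes. Each time comparison used the 6 mice of 1 treatment and each treatment comparison the 6 mice of 1 time, so comparisons share control mice, while the interaction and the average over times used all 12. Sequences and motifs were handled in Python 3.11.15 with Biopython 1.88 from GENCODE vM21 and RefSeq tables of GRCm38. On simulated data in which 100 genes each were changed by 1 and by 2 on the log2 scale, 92% and 98% were called in the time comparison with vehicle, and 87% and 98% in the treatment comparison at ZT0. The simulated noise was normal, with 1 SD per gene over all groups, and independent between genes. It held no livers that stand apart, so these shares do not give the detection rate in the real data. There, 0 of 9806 genes passed for the treatment at ZT0.

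Results were recomputed with a pseudocount of 0.1, without a minimum, with a minimum of 5 FPKM, no trend, median-ratio scaling, quantile normalization, 1 fit over all mice, a replicate block, Cyber-T (window 101, weight 10), the first line of repeated symbols, omission of near-identical genes and omission of each library. All Cyp2 genes were eligible to be named. From the other lists, genes with an adjusted p under 0.05 were named, up to 4 per list, as well as Por, Nr1i2, Nr1i3 and Dbp, and further genes were named after their values were seen where a small count needed it. The Cyp2 genes and the lists were chosen with earlier results of these data known. Ugt1a1, Tf, Glul and the globin genes were not analysed here. The genes of the redox and heme list that were lower at ZT12 with the tested product are not reported here.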

Additional observations from a re-analysis of the deposited data

Results flagged for a closer look

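The change from ZT0 to ZT12 differed between Policaptil Gel Retard and vehicle mice for 6 Cyp2 genes, Cyp2a22 among them, at an unadjusted p under 0.05, and for 0 after adjustment over all 9806 genes. As the log2 change with the tested product minus that with vehicle, the difference was -1.49 ± 0.27 (SE) for Cyp2c67, -1.09 ± 0.33 for Cyp2c68, -0.76 ± 0.28 for Cyp2c54, -0.82 ± 0.32 for Cyp2c29, -1.05 ± 0.45 for Cyp2a22 and 0.47 ± 0.17 for Cyp2d40. The limma adjusted p values ran from 0.337 to 0.735. Cyp2c67 stayed between -1.70 and -1.35 with each library left out in turn, with adjusted p of 0.151 to 0.712, and Cyp2a22 was at -0.71 without vehicle ZT12 replicate 3. Cyp2a22 passed the expression filter only through the vehicle group of ZT12, where it was high, so its value is a description and does not count as a difference between the treatments.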

How the results depend on the processing

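For single Cyp2 genes, 37 differences were recomputed to give 642 values, of which 587 kept their direction and their side of the threshold, 49 lost the call, 6 gained one and 0 changed direction. Of 256 counts of called genes under alternatives other than left-out libraries, 228 stayed within 1.5 times.

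At an adjusted p under 0.05, the 4 genes higher at ZT12 with vehicle became 2 with no minimum and 2 in Cyber-T. With the tested product the 2 higher became 1 with no minimum, in Cyber-T and without near-identical genes, and the 3 lower became 1 under each of these and in 1 fit over all mice. At an unadjusted p, the 1 lower with vehicle became 0 in Cyber-T, and with the tested product the 4 higher became 2 in Cyber-T and the 4 lower 2 without near-identical genes. For the treatment at ZT0 the 4 higher became 7 with quantile normalization and 2 without near-identical genes. At ZT12 the 2 lower became 1 with a minimum of 5 FPKM and 1, Cyp2a22, without near-identical genes. For the interaction the 1 positive became 0 in Cyber-T and the 5 negative became 3 without near-identical genes, with Cyp2a22 still among them. Over both times the 4 higher became 2 with no minimum and 1 in Cyber-T, and the 1 lower became 2 in both. The cause was not tested, apart from the smaller number of genes without the near-identical ones.

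With each library left out in turn, the adjusted counts ran from 1 to 6 higher with vehicle, stayed at 1 higher with the tested product and ran from 1 to 2 lower. The unadjusted counts ran from 6 to 14 higher and 0 to 2 lower with vehicle, from 2 to 5 higher with the tested product, from 1 to 10 higher at ZT0, from 0 to 2 higher and 2 to 3 lower at ZT12, from 0 to 1 positive and 3 to 7 negative in the interaction, and from 0 to 8 higher and 1 to 2 lower over both times.

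Mice of different groups shared only a replicate number: over 18 same-numbered pairs the correlation of deviations from the group means ran from -0.28 to 0.34, with 4 over 0.1. With the replicate block, the adjusted count with vehicle was 1 higher, and the unadjusted counts were 0 lower with vehicle, 10 higher with the tested product, 7 higher at ZT0, and 1 higher and 4 lower at ZT12.

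No read counts were at hand, so levels near 0 carry an unknown counting error.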

Other observations

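A few family members fell outside the rule on symbols. Cyp2d37-ps, annotated as a pseudogene, was at 107 to 175 FPKM in the 12 livers, within the range of Cyp2d13 and Cyp2d40. The joint row of Cyp2d11 and Mir7684 was at 0.166 to 0.767 FPKM, Cyp2c53-ps at 0 to 0.446 and Cyp2ab1 at 0 to 0.0362.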
